A study of Mus musculus with 2 samples.

Results

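Chemokines are small secreted proteins that attract white blood cells, and they act through G protein-coupled receptors on the cells they attract. They are grouped by the spacing of their conserved cysteines into CC, CXC, XC and CX3C families, and by use into inflammatory chemokines, which cells switch on under stress, and constitutive ones, which place cells within tissues. Conventional receptors signal to the cytoskeleton through inhibitory G proteins, whereas atypical receptors bind chemokines without that signal and mostly take them up. Monocytes, from which some tissue macrophages derive, are recruited through the receptor CCR2, macrophages can themselves produce many CC chemokines, and fibroblasts are a known source of CXCL12.

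The genes described here are the mouse chemokines and chemokine receptors, taken by symbol: the Ccl and Cxcl genes, Cx3cl1, Xcl1, Pf4 and Ppbp as ligands, and the Ccr, Cxcr, Cx3cr1, Xcr1, Ackr and Ccrl2 genes as receptors. Reported here are 63 of the 34295 genes in the table, 41 ligand genes and 22 receptor genes, and the rule for choosing them uses no measured value. Poly(A) RNA had been sequenced from 2 kinds of untreated primary wild-type C57BL/6J cells, with 1 library each. The macrophages were grown from femur and tibia marrow in RPMI medium with 10% serum and 30% medium conditioned by L929 cells, a fibroblast line that secretes the macrophage growth factor CSF1, and were replated on day 6 at 750000 cells. The fibroblasts were outgrowths of embryos of stage E13.5 to E14.4 without head and red tissue, sorted to remove cells bearing CD45, CD11b or F4/80, used at passage 4 to 7 in DMEM with 10% serum, with a labelled cell number of 100000. Both were lysed after overnight culture. Such an outgrowth is a mixture of embryonic cells rather than a clone.

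Values are transcripts per 1000000 (TPM), which are scaled for transcript length, so that levels of different genes can be set side by side. The columns summed to 999609 TPM in the macrophage and 999545 TPM in the fibroblast library, and the read depth is unknown. With 1 library per cell type there is no replicate check: no error or p-value can be given, and cell type cannot be told apart from medium, cell number and preparation. In such bulk samples fewer cells of a type and less RNA per cell cannot be told apart either. Detected means that either library gave the gene at least 1 TPM. The call "higher" goes to the library in which a gene reached 5 TPM and its TPM plus 1 exceeded that of the other library 4-fold or more. Log2 ratios are macrophage over fibroblast of TPM plus 1, which pulls low genes toward 0, while folds are ratios of TPM. A 0 is what the table lists, and folds against it are not given.

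All 15 macrophage markers were called higher in the macrophage library, where they summed to 28073 TPM, against 40.5 TPM in the fibroblast library. All 15 fibroblast markers were called higher in the fibroblast library, with sums of 17.3 TPM in macrophages and 10669 TPM in fibroblasts. Each list therefore appeared in the other library at 0.144% (macrophage markers in fibroblasts) and 0.162% (fibroblast markers in macrophages) of its own level. Markers of T cells, B cells, dendritic, endothelial, epithelial and erythroid cells summed to at most 10.2 TPM in either library. Neutrophil markers, however, summed to 449 TPM in macrophages against 1.93 TPM in fibroblasts. Megakaryocyte and platelet markers summed to 27.6 TPM in macrophages against 9.78 TPM in fibroblasts. The 5 mast cell and basophil markers were listed at 0 in macrophages and summed to 30.9 TPM in fibroblasts, nearly all of it from Mcpt8.

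Of the 63 genes, 32 were detected and 31 stayed below 1 TPM in both libraries. Among the 32, 18 were called higher in macrophages, 7 in fibroblasts and 7 in neither. Of all 13606 detected genes, 7.21% were called higher in macrophages, 11.8% in fibroblasts and 19.0% in either. All 8 CC ligand genes that passed the size rule were higher in macrophages. The CXC ligands were split, with 4 higher in macrophages and 5 in fibroblasts, and the CX3C ligand gene was higher in fibroblasts.

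In sum the ligand genes stood at 7177 TPM in macrophages against 946 TPM in fibroblasts, a 7.59-fold difference. Few genes made up most of either sum. Ccl2 and Ccl7 held 59.2% of it in macrophages, and Cxcl12 alone held 56.3% in fibroblasts. The median log2 ratio over the 25 detected ligands was 1.26, beside -0.28 over all detected genes. That median depends on genes listed at 0 in a library: over the 19 ligands above 0 in both it was 2.81, beside -0.25 over all genes of that kind.

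**Figure D1:**
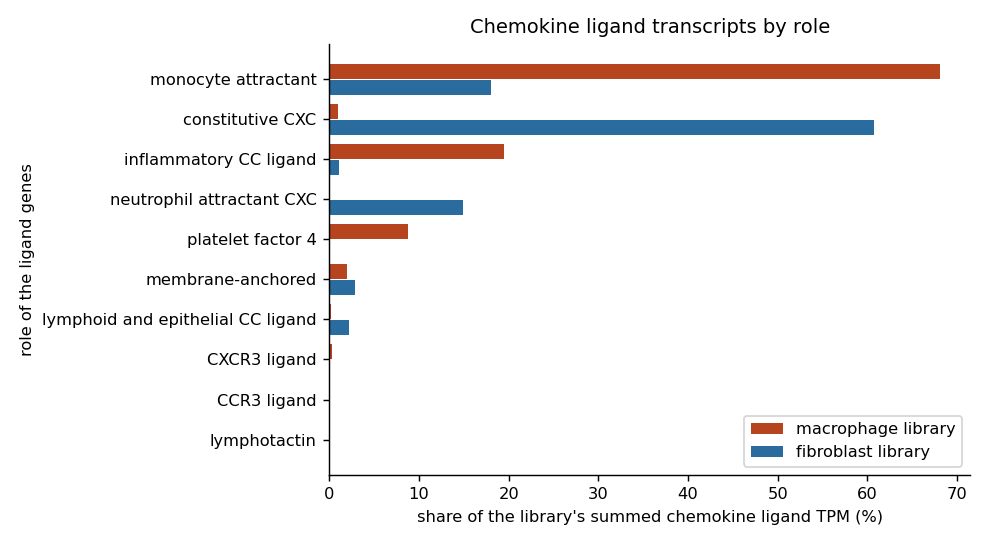
Share of each library's summed chemokine ligand TPM (x axis, in percent) held by ligand genes of each role (rows), for the macrophage library (upper bar of each pair) and the fibroblast library (lower bar). Monocyte attractants held 68.1% of the macrophage sum and 18.1% of the fibroblast sum, whereas constitutive CXC genes held 0.970% in macrophages and 60.7% in fibroblasts.

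The monocyte attractants led the macrophage library. Ccl2, which encodes the main CCR2 ligand, stood at 2517 TPM in macrophages against 81.6 TPM in fibroblasts, a 30.9-fold difference. Its neighbour Ccl7, whose product binds CCR2 and other CC receptors, stood at 1731 TPM in macrophages against 86.0 TPM in fibroblasts, a 20.1-fold difference. Ccl2 was the 40th most abundant of all genes in macrophages and Ccl7 the 69th, and in fibroblasts they ranked 2029th and 1931st. Both were thus well expressed in each cell type, and their order was opposite in the 2 libraries, by a small margin in fibroblasts.

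The fibroblast levels of this pair came to 3.24% of the macrophage value for Ccl2 and 4.97% for Ccl7, and the macrophage markers came to a median of 0.157%. Of the other ligands called higher in macrophages, Ccl5, Cxcl2 and Cxcl16 came to 4.09%, 4.18% and 2.75%, and the rest to at most 1.43%. The part of macrophages in these fibroblast values was not tested. Ccl12, a mouse CCR2 ligand, differed from Ccl2 and Ccl7: it stood at 629 TPM in macrophages and was listed at 0 in fibroblasts. Ccl8, whose mouse product acts through CCR8, was low in both, at 9.61 TPM in macrophages against 3.45 TPM in fibroblasts, and passed the size rule in neither direction.

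The other inflammatory CC ligands were macrophage genes without exception in these libraries. Ccl9, a mouse CCR1 ligand, stood at 512 TPM in macrophages against 3.19 TPM in fibroblasts, and Ccl6, a mouse CCR1 ligand next to it, at 331 TPM in macrophages against 4.73 TPM in fibroblasts. Ccl4, a macrophage inflammatory protein gene, stood at 308 TPM in macrophages and was listed at 0 in fibroblasts. Ccl3, whose product binds CCR1, stood at 205 TPM in macrophages against 0.146 TPM in fibroblasts. Ccl5, a CCR1 and CCR3 ligand that T cells also make, was the lowest of the 5, at 45.6 TPM in macrophages against 1.86 TPM in fibroblasts. Their log2 ratios, where both values were above 0, ran from 4.02 for Ccl5 to 7.49 for Ccl3.

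**Figure D2:**
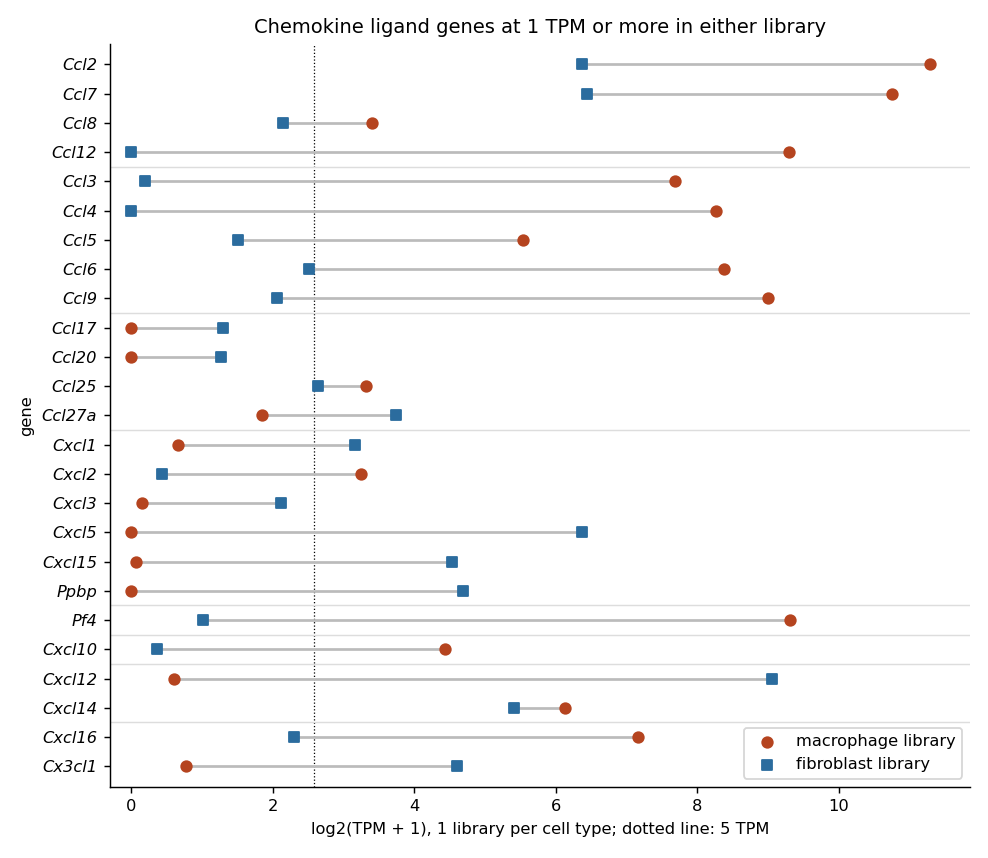
Level of the 25 detected chemokine ligand genes, as log2 of TPM plus 1 (x axis), in the macrophage library (circles) and the fibroblast library (squares), 1 library each, with grey lines joining the 2 values of a gene and horizontal rules between roles. Ccl2 and Ccl7 lie to the right of the 5 TPM line in both libraries, and Cxcl12 is the rightmost square.

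The remaining CC ligands, which mostly guide lymphocytes, were low or undetected. Ccl25, a thymus and gut chemokine, stood at 8.95 TPM in macrophages against 5.25 TPM in fibroblasts. Its exons overlap those of Elavl1 on the opposite strand by up to 181 bases, and Elavl1 stood at 46.6 TPM in macrophages against 62.5 TPM in fibroblasts, so reads from the overlap may be shared if strand was not used. Ccl27a, a skin chemokine, stood at 2.61 TPM in macrophages against 12.4 TPM in fibroblasts, short of the size rule at a log2 ratio of -1.89. It was listed on 3 rows, of which 2 were at 0, and 57.0% of its 31-base stretches also occur in transcripts of other genes, so its reads cannot be assigned with certainty.

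The CCR4 ligand gene Ccl17 and the CCR6 ligand gene Ccl20 were listed at 0 in macrophages and stood at 1.47 and 1.41 TPM in fibroblasts. Ccl22 and Ccl24 stood below 1 TPM in both libraries, as did Ccl28. Ccl1, Ccl11, Ccl19, Ccl21a, Ccl21b, Ccl21c, Ccl26 and Ccl27b were listed at 0 in both, as was the B cell attractant gene Cxcl13. Among them Ccl21b and Ccl27b share all of their 31-base stretches with other genes.

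The neutrophil attractants of the CXC family lay mostly on the fibroblast side. Cxcl5, whose product acts through CXCR2, had a listed value of 0 in macrophages, against 81.9 TPM in fibroblasts. Ppbp, the precursor gene of a platelet-stored CXCR2 ligand, was likewise listed at 0 in macrophages and stood at 24.9 TPM in fibroblasts. Cxcl15, known in mice as a lung chemokine, stood at 0.0474 TPM in macrophages against 22.2 TPM in fibroblasts. These 3 genes had no appreciable macrophage value.

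The closely related genes Cxcl1, Cxcl2 and Cxcl3 were not all on the same side. Cxcl1 stood at 0.578 TPM in macrophages against 7.95 TPM in fibroblasts, a log2 ratio of -2.50. Cxcl3 stood at 0.109 TPM in macrophages against 3.34 TPM in fibroblasts, a log2 ratio of -1.97 and below the 5 TPM minimum. Cxcl2 was the exception, at 8.52 TPM in macrophages against 0.356 TPM in fibroblasts, a log2 ratio of 2.81. Cxcl2 and Cxcl3 have 161 stretches of 31 bases in common, 7.59% of those of Cxcl2, so most of their sequence tells them apart. All 3 were low, and the calls of Cxcl1 and Cxcl2 are lost with a minimum of 10 TPM.

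The promoters of these 3 genes are shown because these paralogs differ in the library in which they were higher. That of Cxcl10 is shown because, among the called ligand genes with a window, it alone holds both motifs searched for in capitals. The printed promoters are RefSeq sequences of GRCm38.p6, 5′ to 3′ on the strand of the gene, ending before the annotated transcripts begin. Capitals mark the kappaB motif, bound by NF-kB factors and searched as GGGA and CC with any 4 bases between them, and the interferon response motif, searched as GAAA and GAAA with any 2 bases between them, both on either strand. The stretches are chr5:90891095-90891240 on the plus strand for Cxcl1, chr5:90903749-90903870 on the plus strand for Cxcl2, chr5:90785951-90786100 on the plus strand for Cxcl3 and chr5:92348890-92349119 on the minus strand for Cxcl10.
Cxcl1: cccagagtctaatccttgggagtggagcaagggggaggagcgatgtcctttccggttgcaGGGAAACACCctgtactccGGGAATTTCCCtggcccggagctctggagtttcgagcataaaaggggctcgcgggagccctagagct
Cxcl2: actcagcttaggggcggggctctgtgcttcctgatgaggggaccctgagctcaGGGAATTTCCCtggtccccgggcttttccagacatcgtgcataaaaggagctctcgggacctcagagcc
Cxcl3: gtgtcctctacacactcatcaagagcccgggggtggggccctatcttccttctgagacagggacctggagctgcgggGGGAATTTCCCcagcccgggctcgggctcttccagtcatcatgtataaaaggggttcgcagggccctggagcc
Cxcl10: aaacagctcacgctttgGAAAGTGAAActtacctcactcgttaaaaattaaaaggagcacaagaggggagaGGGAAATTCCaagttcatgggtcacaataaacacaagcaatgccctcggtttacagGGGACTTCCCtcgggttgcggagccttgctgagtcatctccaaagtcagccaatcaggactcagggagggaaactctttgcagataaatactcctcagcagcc

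The same run of 11 letters, GGGAATTTCCC, stood in all 3 paralogous promoters. It holds overlapping kappaB matches on both strands and begins at -71 in Cxcl1, -97 in Cxcl2 and -73 in Cxcl3, counted from the RefSeq start with -1 as the last base before it. It was the longest run the 3 printed stretches had in common, and their 250-base windows were 50.2% (Cxcl1 and Cxcl2), 51.3% (Cxcl1 and Cxcl3) and 56.1% (Cxcl2 and Cxcl3) identical when aligned. Cxcl1 held a further kappaB match at -90. The printed stretches of Cxcl1 and Cxcl2 end at -5 and -29, because annotated GENCODE transcripts begin before the RefSeq start there. Positions counted from the GENCODE starts would therefore differ for these genes. Of the genes with this run, Cxcl2 was called higher in macrophages, Cxcl1 in fibroblasts and Cxcl3 in neither.

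Over all 32851 windows of 250 bases upstream of a start, 17.6% held the kappaB motif and 2.98% the interferon response motif. No window was available for Ccl2, Ccl4, Ccl5, Ccl7 and Cxcl16, called higher in macrophages, or for Cxcl5, called higher in fibroblasts. Their promoters were not searched. Of the 7 ligand genes higher in macrophages that have a window, Cxcl2 and Cxcl10 held a kappaB match and Cxcl10 an interferon response match. Of the 5 ligand genes higher in fibroblasts that have one, Cxcl1 held a kappaB match and none an interferon response match. The window of Ccl19, a gene listed at 0 in both libraries, also held both motifs. Searched likewise on either strand, TATAAA was matched in 2 of the 7 and 3 of the 5, against 12.4% of all windows. TGANTCA was matched in 2 and 1, against 6.75%, and AGGAAG in 4 and 1, against 29.5%. The AGGAAG match of Cxcl2 lies on the opposite strand, so the printed stretch shows its complement. All of these are matches of letters and show no binding.

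Pf4, encoding the heparin-binding platelet factor 4, had the third highest ligand level in macrophages, at 633 TPM, and stood at 1.02 TPM in fibroblasts. Pf4 and Ppbp are both known as platelet genes, yet they were called higher in opposite libraries. Of 5 megakaryocyte and platelet markers, 3 were detected: Vwf, at 27.3 TPM in macrophages against 0.332 TPM in fibroblasts, Gp1bb, listed at 0 in macrophages and at 4.74 TPM in fibroblasts, and Itga2b, at 0.229 TPM in macrophages against 4.69 TPM in fibroblasts. Gp9 was listed at 0 in both. The part of such cells in the Pf4 and Ppbp values was not tested.

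The remaining CXC ligands included the most abundant fibroblast chemokine. Cxcl12, which retains blood-forming and immune cells near stroma, stood at 0.529 TPM in macrophages against 533 TPM in fibroblasts, a log2 ratio of -8.45. Its macrophage value was 0.0993% of the fibroblast one, below the median of 0.167% at which fibroblast markers appeared in macrophages. The part of fibroblasts in that macrophage value was not tested. Cxcl14, an epithelial and stromal chemokine, was the one ligand above 40 TPM in both libraries besides Ccl2 and Ccl7, at 69.1 TPM in macrophages against 41.4 TPM in fibroblasts. It passed the size rule in neither direction, with a log2 ratio of 0.73.

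Cxcl10, an interferon-induced attractant of T cells, stood at 20.7 TPM in macrophages against 0.286 TPM in fibroblasts, and the other CXCR3 ligand genes Cxcl9 and Cxcl11 were below 1 TPM in both. GENCODE M21 lists Cxcl11 as a polymorphic pseudogene. In the interferon response list 13 of the 16 detected genes were called higher in macrophages and none in fibroblasts, and its median log2 ratio was 3.60. Among them were the transcription factor gene Irf7, at 327 TPM in macrophages against 1.63 TPM in fibroblasts, and Oas1a, which encodes a sensor of viral RNA, at 199 TPM in macrophages against 0.302 TPM in fibroblasts. Of all detected genes 7.21% were called higher in macrophages and 11.8% in fibroblasts, and their median log2 ratio was -0.28. Of the NF-kB response list's 15 detected genes 2 were called higher in macrophages, 2 in fibroblasts and 11 in neither direction, a fibroblast share near that of all genes, and its median log2 ratio was 0.85. Tnf and the inhibitor gene Tnfaip3 were called higher in macrophages, where they stood at 59.1 and 35.8 TPM, against 0 and 2.25 TPM in fibroblasts, and Vcam1 and Ptgs2 were called higher in fibroblasts, with 0.234 and 0.589 TPM in macrophages against 71.4 and 42.5 TPM in fibroblasts.

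The membrane-anchored chemokine genes were split between the libraries. Cxcl16, whose product also serves as a scavenger receptor, stood at 143 TPM in macrophages against 3.92 TPM in fibroblasts, a 36.4-fold difference. Its exons overlap those of Zmynd15 on the opposite strand, which was at 4.41 TPM in macrophages and listed at 0 in fibroblasts. Cx3cl1, encoding fractalkine, stood at 0.712 TPM in macrophages against 23.5 TPM in fibroblasts, a log2 ratio of -3.84. Xcl1, encoding lymphotactin, and Cxcl17, a mucosal chemokine, were below 1 TPM in both.

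All called genes shared a direction in the chromosome 11 CC groups, whereas a chromosome 5 CXC group held calls in both directions. Positions are those of GENCODE M21 on GRCm38, and 62 of the 63 genes had one. In the group on chromosome 11 from 83525778 to 83664683, in the order Ccl5, Ccl9, Ccl6, Ccl3, Ccl4, all 5 genes were called higher in macrophages. In the other chromosome 11 group, from 82035571 to 82305690, Ccl2, Ccl7 and Ccl12 were called higher in macrophages. Ccl8, which lies 11784 bases past Ccl12, was called in neither direction. Ccl11, between Ccl7 and Ccl12, and the outermost gene Ccl1 were listed at 0 in both.

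The CXC group on chromosome 5, from 90759360 to 90905938, was mixed. In the order Cxcl5, Ppbp, Pf4, Cxcl3, Cxcl15, Cxcl1, Cxcl2, all on the plus strand, Pf4 and Cxcl2 were called higher in macrophages and Cxcl5, Ppbp, Cxcl15 and Cxcl1 in fibroblasts. Ppbp and Pf4 are 2371 bases apart, and Cxcl1 and Cxcl2 10755 bases. On chromosome 8 the fibroblast gene Cx3cl1 lies between Ccl22 and Ccl17, which were not called.

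**Figure D3:**
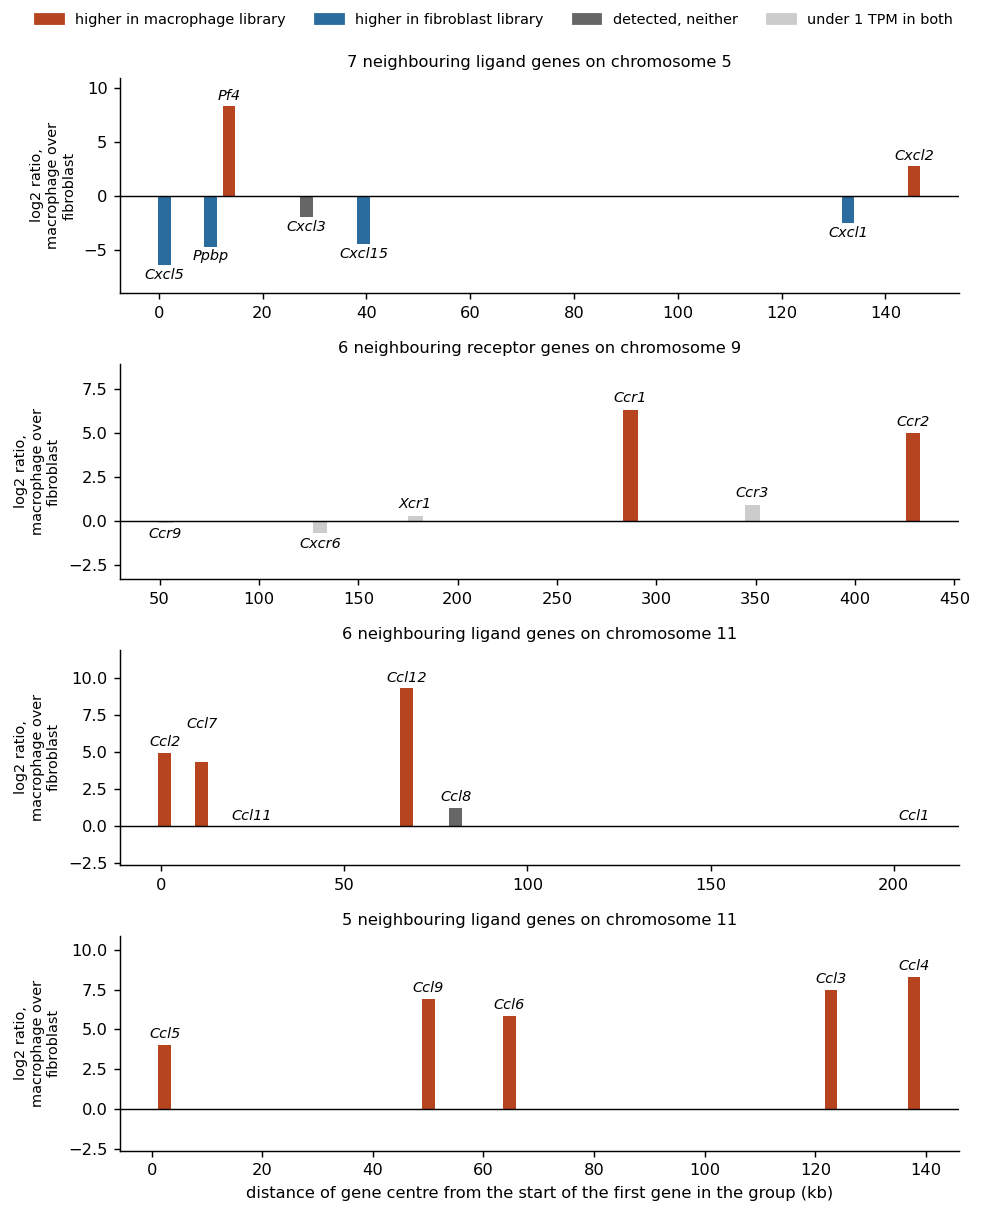
Log2 ratio of macrophage over fibroblast TPM plus 1 (y axis) of neighbouring chemokine ligand or receptor genes, against the distance of each gene's centre from the start of the group's first gene in kb (x axis), with bar colour giving the library in which the gene was called higher and no bar for genes listed at 0 in both. The chromosome 5 group has bars on both sides of 0, and the second chromosome 11 group has 5 bars above it.

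The receptor genes had sums of 253 TPM in macrophages and 23.9 TPM in fibroblasts. Of 22, 7 were detected, of which 6 (85.7%) were called higher in macrophages and 1 (14.3%) in fibroblasts. Over all detected genes these shares were 7.21% and 11.8%, so the fibroblast share of the receptors is near that of all genes. The receptor median log2 ratio was 4.98, beside -0.28 over all detected genes, and it was 2.89 with a pseudocount of 5. Ccr1, a receptor for several inflammatory CC chemokines, was the highest, at 85.9 TPM in macrophages against 0.101 TPM in fibroblasts. Cxcr4, the CXCL12 receptor, stood at 71.2 TPM in macrophages against 0.239 TPM in fibroblasts.

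The receptors that distinguish monocyte subsets were also present in macrophages. Cx3cr1, the fractalkine receptor of resident and patrolling cells, stood at 35.0 TPM in macrophages against 0.101 TPM in fibroblasts. Ccr2, the receptor of inflammatory monocytes, stood at 32.5 TPM in macrophages against 0.0637 TPM in fibroblasts. Of the 31-base stretches of Ccr2, 3.48% also occur in other genes, so a small part of its reads cannot be assigned with certainty.

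Cxcr3, best known from activated T cells, stood at 16.0 TPM in macrophages and was listed at 0 in fibroblasts. Of 8 T cell markers 3 were detected and none was called, and the list summed to 4.57 TPM in macrophages and 4.78 TPM in fibroblasts. The detected ones were Lck, at 1.85 TPM in macrophages against 0.282 TPM in fibroblasts, Cd4, at 1.78 TPM in macrophages against 0.0613 TPM in fibroblasts, and Trac, listed at 0 in macrophages and at 4.02 TPM in fibroblasts, while Cd3e, Cd3d and Cd3g stayed below 1 TPM in both. The part of T cells in the Cxcr3 value was not tested. The neutrophil receptor genes Cxcr1 and Cxcr2 were below 1 TPM in both libraries, at 0.191 and 0.563 TPM in macrophages and 0 and 0.337 TPM in fibroblasts. The neutrophil marker list, however, summed to 449 TPM in macrophages and 1.93 TPM in fibroblasts, with 4 of 7 detected genes called higher in macrophages, led by S100a9 at 268 TPM. The other called genes were S100a8, Ltf and Camp, at 157, 12.0 and 5.17 TPM in macrophages against 1.85, 0 and 0 TPM in fibroblasts. Mpo, Elane and Retnlg stood at 2.83, 2.34 and 2.01 TPM in macrophages and below 1 TPM in fibroblasts. The remaining gene of the list, Ly6g, was listed at 0 in both. The part of neutrophils in the chemokine values was not tested.

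None of the 17 conventional receptor genes reached 1 TPM in fibroblasts. The highest there was Cxcr6, the CXCL16 receptor gene, at 0.214 TPM in macrophages against 0.932 TPM in fibroblasts. The other 11 conventional receptor genes under 1 TPM in both libraries were Ccr3, Ccr4, Ccr6, Ccr7, Ccr8, Ccr9, Ccr10, Cxcr1, Cxcr2, Cxcr5 and Xcr1, whose highest value was 0.902 TPM, of Ccr3 in macrophages.

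Among the atypical receptors each cell type had 1 detected gene. Ackr3, whose product takes up CXCL12, was listed at 0 in macrophages and stood at 20.7 TPM in fibroblasts. Ccrl2, which binds chemerin without signalling, stood at 8.11 TPM in macrophages against 0.425 TPM in fibroblasts, a call lost with a minimum of 10 TPM. Ackr1, Ackr2 and Ackr4, which bind inflammatory or lymphoid chemokines, were below 1 TPM in both.

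**Figure D4:**
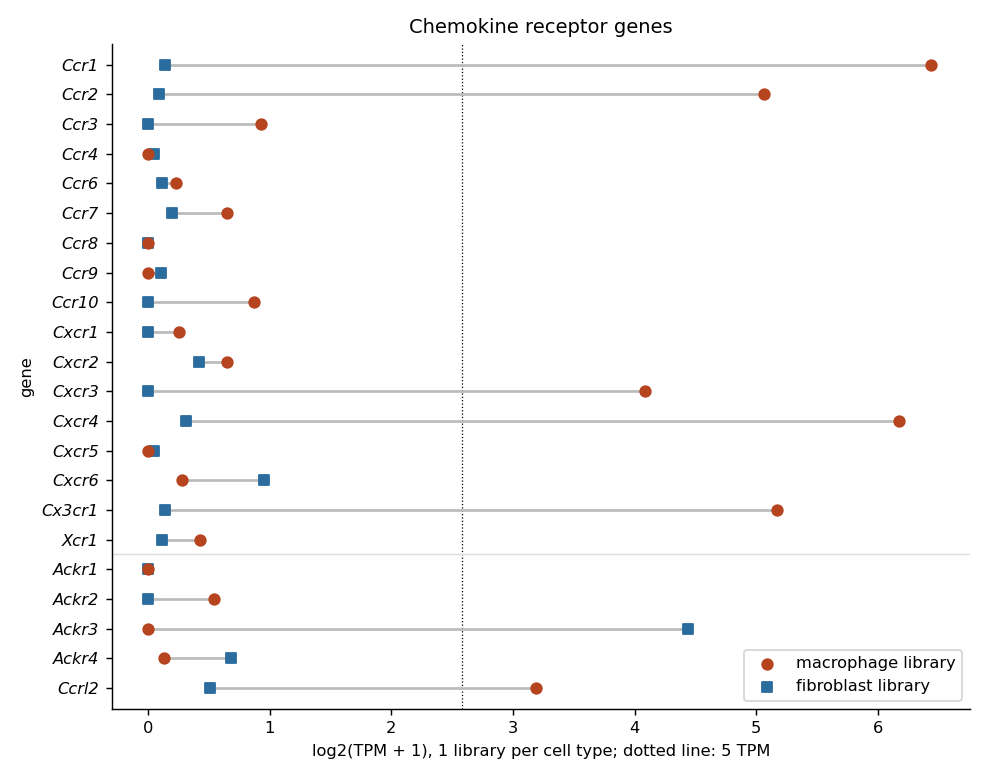
Level of the 22 chemokine receptor genes, as log2 of TPM plus 1 (x axis), in the macrophage library (circles) and the fibroblast library (squares), 1 library each, with conventional receptors above the horizontal rule and atypical receptors below it. Ackr3 is the one square to the right of the 5 TPM line.

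Ligand and receptor genes were then read together over 53 listed pairs, of which 36 involve a conventional receptor and 17 an atypical one. A pair is expressed in a combination of libraries where both genes reached 5 TPM. Within macrophages 9 pairs were expressed, from fibroblast ligand to macrophage receptor 5, within fibroblasts 1, and from macrophage ligand to fibroblast receptor 0. With the minimum lowered to 1 TPM, 8 pairs were expressed from fibroblast ligand to macrophage receptor, and the other 3 counts did not change. The count of 0 restates the receptor values. Only Ackr3 reached either minimum in fibroblasts, and its listed ligands Cxcl12 and Cxcl11 stood at 0.529 and 0.261 TPM in macrophages.

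The 9 pairs within macrophages joined Ccr1 to Ccl3, Ccl5, Ccl6, Ccl7 and Ccl9, Ccr2 to Ccl2, Ccl7 and Ccl12, and Cxcr3 to Cxcl10. The 5 from fibroblast to macrophage were Ccl2 and Ccl7 with Ccr2, Ccl7 with Ccr1, Cxcl12 with Cxcr4 and Cx3cl1 with Cx3cr1. The 3 of them that involve Ccl2 or Ccl7 were also expressed within macrophages, at the higher ligand levels given above. Within fibroblasts the pair was Cxcl12 with Ackr3, at 533 and 20.7 TPM. Cxcl1, Cxcl5 and Ppbp were paired with Cxcr2, and Cxcl16 with Cxcr6, neither of which reached 5 TPM in either library. Ccl4 was listed only with Ackr2, which did not reach 5 TPM either. Of the detected ligands Pf4, Cxcl14 and Cxcl15 were in no listed pair, so the pair counts could not include them. The same holds for the detected receptor gene Ccrl2. Transcripts were measured, and neither protein nor migration.

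**Figure D5:**
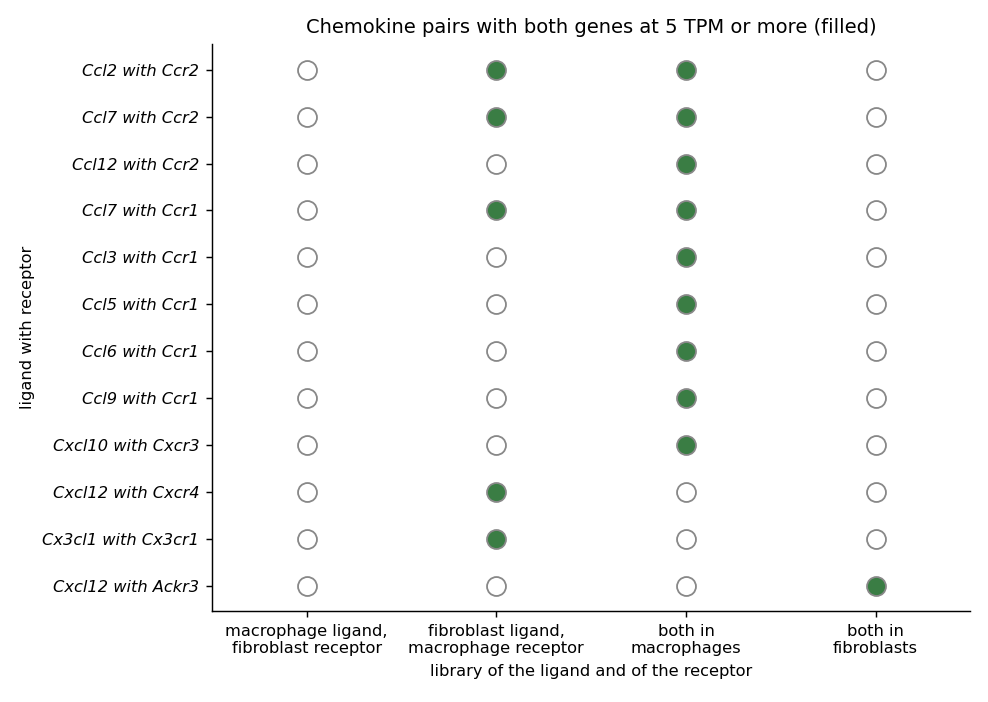
The 12 ligand and receptor pairs (rows) with both genes at 5 TPM or more in at least 1 combination of libraries (columns), filled where the combination is expressed. The column from macrophage ligand to fibroblast receptor is empty, and the column within macrophages holds 9 filled circles.

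Genes that relay the receptor signal were in part macrophage genes and in part shared. Of 31 signalling genes 30 were detected, of which 18 were called higher in macrophages, 2 in fibroblasts and 10 in neither. Over all detected genes 7.21% were called higher in macrophages and 11.8% in fibroblasts, and the fibroblast count of the list is below that share. The median log2 ratio of the signalling genes was 3.32, beside -0.28 over all detected genes. Those called higher in macrophages with the highest values were Rgs1, Rgs2 and Rgs10, which encode proteins that shorten G protein signals, and Arrb2, which encodes an arrestin that ends receptor signalling. Rgs1 stood at 638 TPM in macrophages against 0.383 TPM in fibroblasts, and Arrb2 at 379.9 TPM in macrophages against 8.41 TPM in fibroblasts. Rgs10 stood at 275 TPM in macrophages against 20.5 TPM in fibroblasts, and Rgs2 at 260.3 TPM in macrophages against 3.11 TPM in fibroblasts. In fibroblasts Rgs16 was called higher, at 1.97 TPM in macrophages against 19.5 TPM in fibroblasts, as was the inhibitory G protein gene Gnai1, listed at 0 in macrophages and at 8.65 TPM in fibroblasts.

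Of 16 genes that process or display chemokines 14 were detected, of which 1 was called higher in macrophages, 6 in fibroblasts and 7 in neither. Over all detected genes more were likewise called higher in fibroblasts, 11.8% against 7.21% in macrophages, and the macrophage count of the list is near that share. The median log2 ratio of the list was -1.74, beside -0.28 over all detected genes. Mmp12, a macrophage elastase gene, was the macrophage one, at 182 TPM in macrophages against 2.82 TPM in fibroblasts. The matrix protease genes Mmp14 and Mmp2, whose products can cleave chemokines, stood at 5.67 and 3.30 TPM in macrophages and 706 and 375 TPM in fibroblasts. The syndecan genes Sdc1 and Sdc2, encoding cell surface carriers of the sugar chains that hold chemokines, stood at 5.46 and 0.414 TPM in macrophages and 185 and 177 TPM in fibroblasts.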

How the data were processed

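The study's table held 34456 rows by gene symbol, with 1 value column for each of the 2 libraries. The authors deposited TPM, judged so by range and column sums, since the file header names no unit. The pseudoaligner kallisto (0.43.1) and GRCm38 are named, per the submitters' processing notes, and per the labels' protocols a stranded poly(A) library kit; not given in the sources used here are the transcript set, how transcripts were joined into genes, and the use of strand. Rows sharing a symbol were added, giving 34295 genes; 4 of the chemokine genes stood on more than 1 row, of which only Ccl27a was detected. The 28 rows with date-like names were kept apart by description.

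Calls, medians and pairs were computed in Python 3.11.15 with pandas 2.3.3, with no test, and the call rule was tested on simulated data. The genes changed in that simulation stood well above the 5 TPM minimum. It therefore does not cover calls near that minimum, such as those of Cxcl1, Cxcl2 and Ccrl2. All detected members are named with both values. Of the other lists, up to 4 genes per direction with the highest TPM are named. Named after their values were seen were Mcpt8, Gp9, Ly6g, Mpo, Elane, Retnlg, the T cell markers and the overlapping genes Zmynd15 and Elavl1. The members, lists, pairs and motifs were chosen with earlier results of these data known. Stretches of 31 bases, the length kallisto commonly indexes, came from GENCODE M21 transcripts of 62 members, of which 26 share none with another gene. Promoters came from RefSeq (GRCm38.p6), which had 48 of the 63 members; a further receptor gene that the rule takes is not reported here.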

Additional observations from a re-analysis of the deposited data

How the results depend on the processing

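Each call count was repeated under 9 alternatives, and all stayed within 1.5 times of the reported count. The calls that changed were Cxcl2, Cxcl1 and Ccrl2, lost with a pseudocount of 5 or a minimum of 10 TPM, Ccl27a, gained in fibroblasts with a pseudocount of 0.1 or a 2-fold threshold, and Ccl8, gained in macrophages with the 2-fold threshold. The 32 named log2 ratios kept their sign under all 5 alternatives run for them. The ligand median of 1.26 was 1.45 with a pseudocount of 0.1, 0.79 with a pseudocount of 5, 1.47 with median-of-ratios scaling, 1.42 when rescaled without the mitochondrial genes and each library's top 50 genes, and 3.42 over ligands at 5 TPM or more. The receptor median of 4.98 was 7.44, 2.89, 5.11 and 3.78 in the first 4 of these settings. After either rescaling the 1 TPM cut for detection was applied anew to the rescaled values, so genes near it could enter or leave. The receptor median of 3.78 is therefore not over the same genes as that of 4.98. It lies between the rescaled log2 ratios of Cxcr3 (4.56) and Ccrl2 (3.00), which were 4.09 and 2.68 before. The cause of the other shifts was not tested. Without pseudocount, the median log2 ratio of genes reaching 5 TPM in each library was -0.18, and 0.07 after median-of-ratios scaling, so values lie about that far from a centred scale. With a minimum of 1 TPM, the pairs of fibroblast ligand and macrophage receptor numbered 8 in place of 5. TPM keep no depth, so values below 1 TPM carry no known precision. No paired analysis was possible because each cell type has 1 library.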
